A study of Mus musculus with 18 samples.

Results

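The Foxa proteins Foxa1, Foxa2 and Foxa3 are transcription factors of liver and other endoderm-derived organs. They bind DNA through a conserved central winged-helix (forkhead) domain, they can bind their sites in closed chromatin, and for this they are called pioneer factors. The domains on either side of the forkhead domain differ more between the 3 proteins and hold regions used in transactivation. Together with Hnf4alpha, a nuclear receptor of hepatocytes, a Foxa protein can turn fibroblasts into induced hepatocyte-like (iHep) cells, and the constructs described here exchange domains between Foxa proteins in that setting. The question addressed is whether the peak list of a construct differs with the origin of its DNA-binding domain, here called the core, when both ends of the protein are held the same.

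Of the 9 ChIP-seq peak lists of the series, 4 come from constructs that end in the Foxa3 C-terminal domain, and these 4 lists were compared. The series holds 18 samples, 9 ChIP libraries and 9 inputs, all from C57BL/6 mouse embryonic fibroblasts taken at 13.5 days post coitum, infected with Hnf4alpha and grown as iHep cells. Foxa3-N1 is Foxa3 carrying the Foxa1 N-terminal domain, and Foxa3-N2 is Foxa3 carrying the Foxa2 N-terminal domain. These are the 2 constructs with the Foxa3 core. Foxa1-C3 is Foxa1 carrying the Foxa3 C-terminal domain, and Foxa2-C3 is Foxa2 carrying it, so their cores are those of Foxa1 and Foxa2. By the labels the antibody follows the N-terminal domain. Foxa3-N1 and Foxa1-C3 were precipitated with an antibody to Foxa1 and differ only in the core (the Foxa1 pair), and Foxa3-N2 and Foxa2-C3 were precipitated with an antibody to Foxa2 and differ only in the core (the Foxa2 pair). The 2 pairs share no library.

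Each construct has 1 list, and nothing in the labels gives a second culture. With 2 constructs a side there are 6 ways to split the 4 lists, so the smallest two-sided exact permutation p is 0.333, and no difference between the sides can pass 0.05. Any difference between the sides may therefore be one between single libraries. Differences are given within each pair, and a difference that takes opposite signs in the 2 pairs is said to do so. Intervals on shares are 95% Wilson intervals and cover counting error over peaks or regions only. The files list peaks and not reads, so the sequencing depth behind a list is unknown.

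In both pairs the construct with the Foxa3 core had the longer list. Foxa3-N1 had 7625 peaks and Foxa1-C3 had 4807, a ratio of 1.59. Foxa3-N2 had 16543 peaks and Foxa2-C3 had 13715, a ratio of 1.21. The 2 Foxa2-antibody lists were both longer than the 2 Foxa1-antibody lists, so the ranges of the 2 cores overlapped. On the log2 scale the Foxa3-core lists had 13.46 ± 0.79 (SD, n = 2) and the others 12.99 ± 1.07 (SD, n = 2). These SDs hold the gap between the 2 antibodies. The difference was 0.67 in the Foxa1 pair and 0.27 in the Foxa2 pair, with a mean of 0.47 ± 0.28 (SD, n = 2 pairs). The exact two-sided permutation p was 0.667 over the 6 splits and the exact sign-flip p over the 2 pairs was 0.5, the smallest that 2 pairs can give. Because the lists differ in length, each list was also reduced to its 4807 strongest peaks by the deposited peak score, which is the length of the shortest list (called equal length below). The lowest score kept was 17.0 in Foxa3-N1, 31.2 in Foxa3-N2 and 29.9 in Foxa2-C3, against 5.67 in Foxa1-C3, whose whole list was kept.

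Foxa3-N2 stood apart from the other 3 lists in the number of peaks on 1 chromosome. At equal length 405 of its 4807 peaks (8.43%, interval 7.67 to 9.24) lay on chromosome 6, against 285 in Foxa3-N1, 318 in Foxa1-C3 and 306 in Foxa2-C3 (5.93% to 6.62%). The excess was spread along the chromosome: Foxa3-N2 had the most peaks of the 4 lists in 12 of 15 windows of 10 Mb. Chromosome 6 also held 115 of the 1088 regions found at equal length in Foxa3-N2 alone (10.6%), against 4.31% to 5.73% of the regions found in 1 of the other lists alone. This chromosome was singled out after its values were seen, and the part it plays in the results was not tested beyond leaving it out, which is given beside the counts it touches.

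The 4 lists merged into 22812 regions, where a region is a stretch covered by peaks that overlap by at least 1 bp. Of these, 2791 (12.2%) had a peak in all 4 lists, 2968 in 3, 5480 in 2 and 11573 (50.7%) in 1. Regions held by both Foxa3-core lists and by neither of the others numbered 644, which is 2.82% of all regions (interval 2.62 to 3.05). Those held by both Foxa1/2-core lists and by neither Foxa3-core list numbered 270, or 1.18% (interval 1.05 to 1.33). The largest classes were regions of Foxa3-N2 alone (6192) and regions shared by the 2 lists of the Foxa2 pair and no other (3807). The remaining classes of exactly 2 lists held 442 regions (Foxa3-N1 and Foxa2-C3), 232 (Foxa3-N2 and Foxa1-C3) and 85 (Foxa1 pair).

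At equal length the order of the 2 sides turned. Among 9589 regions, 1689 (17.6%) had a peak in all 4 lists. Only 233 (2.43%, interval 2.14 to 2.76) were held by both Foxa3-core lists and no other. Those held by both Foxa1/2-core lists and no other numbered 396 (4.13%, interval 3.75 to 4.55). The other classes of exactly 2 lists held 346 regions (Foxa1 pair), 520 (Foxa2 pair), 256 (Foxa3-N1 and Foxa2-C3) and 286 (Foxa3-N2 and Foxa1-C3). The Foxa1/2-core count lay within the range of these and the Foxa3-core count below it. The order of the 2 core sides was the same with the 2403 strongest peaks of each list (120 and 183 regions) and with the 1201 strongest (64 and 101 regions). Without chromosome 6 the counts at equal length were 211 and 371, and those in the full lists were 600 and 259. The greater number of Foxa3-core regions in the full lists thus did not hold once the lists had the same length. It did hold with 1 score cut for all lists (above the pooled median of 20.5), which leaves them unequal in length, at 290 against 122 regions. The order of the sides therefore depended on how the lists were cut, and each class was a small share of the regions in the full and the equal-length lists.

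**Figure D1:**
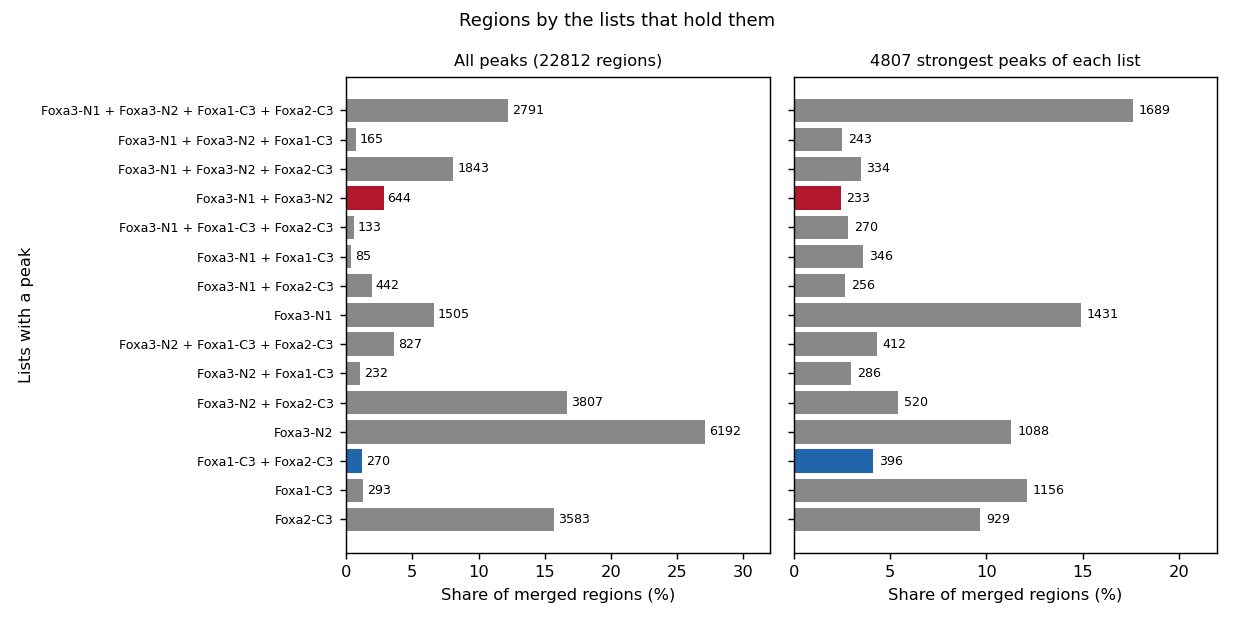
Merged regions by the combination of lists that hold them, as a share of all regions in percent, with the number of regions beside each bar; left, all peaks, right, the 4807 strongest peaks of each list. The class of both Foxa3-core lists (red) is larger than that of both Foxa1/2-core lists (blue) on the left (644 and 270) and smaller on the right (233 and 396), and the 1689 regions of all 4 lists form the largest class on the right.

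Whether the 2 pairs point the same way can be read from the regions that differ in both. At equal length 1171 regions had a peak in exactly 1 list of the Foxa1 pair and in exactly 1 list of the Foxa2 pair. In 629 of them (53.7%, interval 50.9 to 56.6) the same core held the peak in both pairs, and in 542 the cores were opposite. Regions with a peak in Foxa3-N1 and none in Foxa1-C3 numbered 2254, and 233 of these (10.3%) also differed toward the Foxa3 core in the Foxa2 pair, while 256 (11.4%) differed toward Foxa2-C3. Regions with a peak in Foxa1-C3 and none in Foxa3-N1 numbered 2250, and 396 of these (17.6%) also differed toward Foxa2-C3, while 286 (12.7%) differed toward Foxa3-N2. At the 2 shorter equal lengths the share differing the same way was 51.2% (interval 47.2 to 55.2) and 55.6% (interval 49.9 to 61.1), and both intervals include an even split. In the full lists it was 57.6% (914 of 1588), with lists of unequal length within each pair.

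The 2 lists with the Foxa3 core were the least alike of the 6 pairs of lists at equal length. The Jaccard index, the regions held by both lists over those held by either, was highest at equal length for the Foxa2 pair, Foxa3-N2 and Foxa2-C3, at 0.444. It was 0.405 for Foxa1-C3 and Foxa2-C3, which have Foxa1 and Foxa2 cores, and 0.377 for Foxa3-N2 and Foxa1-C3, which share neither core nor antibody. The lists of the Foxa1 pair had 0.361, as did Foxa3-N1 with Foxa2-C3. The value of 0.352 belonged to Foxa3-N1 and Foxa3-N2, the 2 lists with the same Foxa3 core. The mean over the 2 pairs of lists with the same antibody was 0.403, over the 2 with the same core side 0.378, and over the 2 with neither 0.369. At this length the ranges of these 3 kinds overlapped, with 2 values in each. In the full lists, which differ in length, the same-antibody values (0.344 and 0.443) lay above the same-core values (0.278 and 0.292) and the others (0.232 and 0.324). With the 1201 strongest peaks the highest value was that of Foxa1-C3 with Foxa2-C3 (0.401, against 0.400 in the Foxa2 pair).

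How often a peak had a counterpart in the matched list depended on its rank. Of the 481 strongest peaks of Foxa3-N1, 89.0% met a peak of Foxa1-C3 at equal length, and of the last 481 it was 28.9%. The reverse shares, Foxa1-C3 peaks met by Foxa3-N1, were 96.0% and 24.3%. In the Foxa2 pair 97.7% of the strongest and 33.9% of the last Foxa3-N2 peaks met Foxa2-C3, and 96.9% and 33.3% of Foxa2-C3 peaks met Foxa3-N2. Among the 481 strongest peaks the interval of Foxa3-N1 (85.9% to 91.5%) lay below those of the other 3 lists. Against the full lists, 71.9% of the last 481 Foxa3-N2 peaks still met a Foxa2-C3 peak and 75.1% the other way. Among the 4807 strongest peaks, those with no counterpart anywhere in the full matched list numbered 561 (11.7%) in Foxa3-N2 and 537 (11.2%) in Foxa2-C3, values whose intervals overlap. The same count was 2259 (47.0%) in Foxa3-N1 and 1628 (33.9%) in Foxa1-C3, where the full partner lists were shorter and differed in length.

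**Figure D2:**
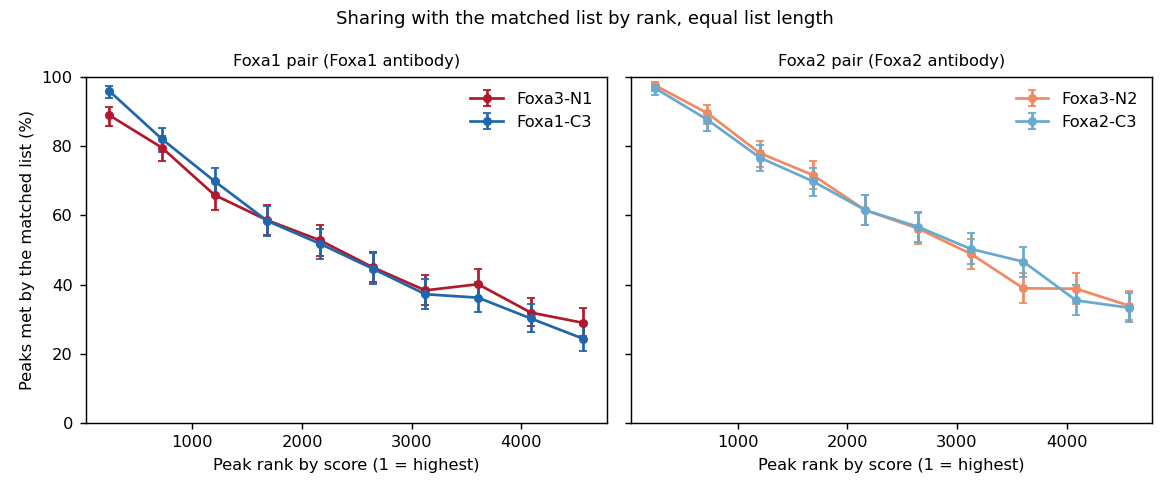
Share of peaks in percent that overlap a peak of the antibody-matched list, both lists at equal length, by rank of the peak in 10 bins; points are shares and bars 95% Wilson intervals. All 4 curves fall from 89.0% or more to between 24.3% and 33.9%, and in the first bin Foxa3-N1 (89.0%) lies below Foxa1-C3 (96.0%).

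Most regions that separated the cores at equal length had a weaker peak on the other side of the comparison when the full lists were read. Of the 233 Foxa3-core regions, 179 (76.8%) had a peak in the full list of Foxa2-C3 that ranked below the first 4807. None could have one in Foxa1-C3, whose full list was already in use. Of the 396 Foxa1/2-core regions, 295 (74.5%) had such a weaker peak in Foxa3-N2 and 113 (28.5%) in Foxa3-N1. Regions with no peak on the other side even in the full lists numbered 54 (23.2%) and 86 (21.7%). The median of the mean rank was 2902 for the Foxa3-core regions and 2978 for the Foxa1/2-core regions, near the 2838 of all regions and far below the strength of the regions of all 4 lists (1434).

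The regions with the best mean rank in each class show the sizes involved. Coordinates are mm9. The strongest Foxa3-core region lay at chr8:87508307-87508890, with rank 496 and score 82.9 in Foxa3-N1 and rank 502 and score 118 in Foxa3-N2. It had no peak in Foxa1-C3 and one at rank 5588 (score 26.3) in Foxa2-C3. The next, chr11:88978446-88978981, had ranks 441 and 1009 in the Foxa3-core lists and 5063 in Foxa2-C3. The other 2 that had a weaker peak on the other side, chr1:4651823-4652384 and chr7:97619246-97619791, had ranks 384 and 1102, and 1130 and 838. Their Foxa2-C3 peaks were far down the list, at ranks 7436 and 8133. The last of the 5, chr16:25899744-25900293 (ranks 1168 and 1072), had no peak in either full Foxa1/2-core list, and it had none in the 4 lists of constructs with the Foxa3 N-terminal domain. Of those 4 lists, which differ in length, Foxa1-N3 and Foxa2-N3 have the Foxa1 and Foxa2 cores, and Foxa3-C1 and Foxa3-C2 the Foxa3 core. The chr1 region ranked 196 in Foxa1-N3, 305 in Foxa2-N3 and 1499 in Foxa3-C1. The chr11 region ranked 743 in Foxa2-N3, 3084 in Foxa3-C1 and 3096 in Foxa3-C2. The chr8 region ranked 4888 in Foxa3-C1 only, and the chr7 region had no peak in these lists.

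The strongest Foxa1/2-core region was chr7:99001479-99002080, with rank 608 and score 47.6 in Foxa1-C3 and rank 232 and score 146 in Foxa2-C3. It had a peak at rank 6898 in Foxa3-N1 and none in Foxa3-N2. The region chr16:49724055-49724657 (ranks 654 and 553, scores 45.5 and 106) had no peak in any other of the 8 Foxa lists. Of the other 3, chr3:30033960-30034716 (ranks 421 and 1085) and chr16:12208091-12208657 (ranks 292 and 1376) had weaker peaks in both Foxa3-core lists, and chr12:94063707-94064327 (ranks 918 and 674) in Foxa3-N2. The best mean rank of a region absent from both full lists of the other side was thus 603.5 for the Foxa1/2 cores and 1120 for the Foxa3 core. In the lists with the Foxa3 N-terminal domain, chr16:12208091-12208657 ranked 205 in Foxa3-C1 and 849 in Foxa3-C2, which have the Foxa3 core. The chr3 region ranked 1379 in Foxa3-C1, 3000 in Foxa3-C2 and 4462 in Foxa2-N3. The chr7 region ranked 2590 in Foxa3-C1 only, and the chr12 region had no peak in these lists.

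Regions present in all 4 lists were compared by rank. Of the 1689 such regions at equal length, 216 (12.8%, interval 11.3 to 14.5) ranked higher in both Foxa3-core lists than in either other list. Those ranked higher in both Foxa1/2-core lists numbered 314 (18.6%, interval 16.8 to 20.5). Each side is 1 of the 6 ways to split the 4 lists. If every order of the 4 ranks were as frequent, each side would hold 1 in 6 of the regions. The other splits were not counted. With ranks divided by list length in the full lists, the counts among 2791 regions were 425 (15.2%) and 218 (7.81%), so the order of the sides turned here as well. At equal length the log2 ratio of ranks (rank in the Foxa1/2-core list over rank in the Foxa3-core list) had a median of -0.15 in the Foxa1 pair and -0.05 in the Foxa2 pair. Ranks differed by over 4-fold toward the Foxa3 core in 119 regions and toward the Foxa1 core in 151 in the Foxa1 pair, and in 130 and 136 regions of the Foxa2 pair. With ranks over list length in the full lists, both signs turned: the medians were 0.32 and 0.20, and the over 4-fold counts were 327 and 119 in the Foxa1 pair and 309 and 206 in the Foxa2 pair. The 2 pairs did not move together at equal length: 848 of 1683 regions (50.4%, interval 48.0 to 52.8) shifted toward the same core in both, and Spearman's rho of the log2 ratios was 0.0035 across the regions. These correlations are across regions that share their libraries and are descriptions only. Across the same 1689 regions, rho of the ranks was 0.552 in the Foxa1 pair and 0.574 in the Foxa2 pair, against 0.461 between the 2 Foxa3-core lists and 0.535 between the 2 Foxa1/2-core lists.

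**Figure D3:**
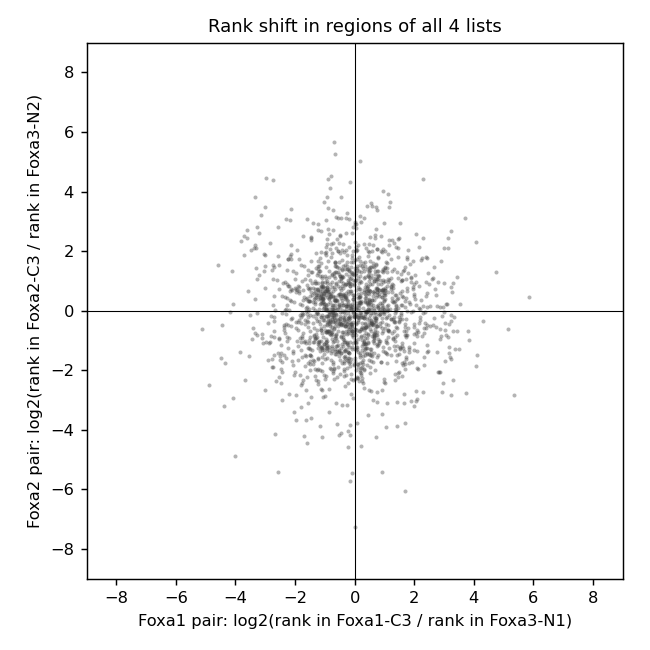
Log2 ratio of ranks in the 1689 regions of all 4 lists at equal length, Foxa1 pair on the horizontal and Foxa2 pair on the vertical axis; each point is a region, and values above 0 mean a better rank with the Foxa3 core. The cloud is centred near 0 with no slope (rho 0.0035), and 848 of the 1683 regions with no tie lie to the upper right or lower left of the point where both ratios are 0.

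The shared regions with the best mean rank in each direction were all near the top of every list. The region at chr9:61656195-61657087 ranked 8 in Foxa3-N1 and 5 in Foxa3-N2, and 39 in Foxa1-C3 and 107 in Foxa2-C3. Those at chr13:41447548-41448222 (ranks 16 and 6 against 31 and 98) and chr6:43287396-43288098 (30 and 11 against 52 and 38) also ranked higher with the Foxa3 core, as did chr10:40242502-40243442 and chr13:9013597-9014291. In the other direction, chr1:75334250-75334981 ranked 7 in Foxa1-C3 and 3 in Foxa2-C3, and 10 in Foxa3-N1 and 54 in Foxa3-N2. It was followed by chr9:116297881-116299007, chr13:34299402-34300497, chr3:116004448-116005273 and chr1:64855479-64856206, the last with ranks of 62 and 60 against 66 and 81. All 10 of these regions also had a peak in each of the 4 lists of constructs with the Foxa3 N-terminal domain.

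The 5 largest differences in mean rank among regions of all 4 lists involved peaks close to the end of 1 or more lists. At chr10:36986692-36987305 the Foxa3-core ranks were 4676 and 3753 and the Foxa1/2-core ranks 706 and 1003. The regions chr3:116212826-116213540 (3721 and 4574 against 674 and 1171) and chr7:82741904-82742627 (4717 and 2415 against 749 and 475) differed in the same direction. The opposite direction was seen at 2 of the 5: chrX:104037862-104038447 ranked 1597 and 1326 with the Foxa3 core and 4363 and 4677 with the others. The other, chr6:17506032-17506621, ranked 1235 and 2132 against 4575 and 4687. The Foxa1-C3 peak scores of these last 2 regions were 10.7 and 9.63, near that list's lowest score of 5.67. In the lists with the Foxa3 N-terminal domain, the chr6 region ranked 279 in Foxa1-N3, 1166 in Foxa2-N3 and 1837 in Foxa3-C1. The chrX region ranked 702 in Foxa1-N3 only, and the chr10 region 2018 in Foxa3-C1 only. The chr3 region ranked 878 in Foxa2-N3, 611 in Foxa3-C1 and 424 in Foxa3-C2. The chr7 region ranked 2938, 1420 and 2811 in the same lists.

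At equal length, peak width moved in opposite directions in the 2 pairs. In the full lists the median width was 413 bp in both lists of the Foxa1 pair. It was 417 bp in Foxa3-N2 and 462 bp in Foxa2-C3. Means of the medians were 415 ± 2.83 bp (SD, n = 2) for the Foxa3 core and 437.5 ± 34.6 bp (SD, n = 2) for the others, a difference of -22.5 bp with an exact two-sided permutation p of 1. At equal length the medians were 464 bp in Foxa3-N1 and 413 bp in Foxa1-C3, a difference of 51 bp, and 528 bp in Foxa3-N2 and 564 bp in Foxa2-C3, a difference of -36 bp. The mean difference then had the other sign, 7.5 bp, with the same p. The narrowest peak of the full lists was 295 bp in Foxa3-N1, 275 bp in Foxa3-N2, 308 bp in Foxa1-C3 and 314 bp in Foxa2-C3.

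The same pattern held where position was fixed. In the 2752 regions with exactly 1 peak in each list, the Foxa3-core peak was wider in 59.8% of regions of the Foxa1 pair, by a median of 24 bp, and in 34.1% of regions of the Foxa2 pair, with a median difference of -39 bp. Both Foxa3-core peaks were wider than both other peaks in 237 regions (8.61%), and both were narrower in 299 (10.9%). Here too, each side would hold 1 in 6 of the regions if every order of the 4 widths were as frequent. Peak midpoints lay a median of 29 bp apart in the Foxa1 pair and 24.5 bp apart in the Foxa2 pair, within the range of the 6 pairs of lists (24.5 to 30 bp). Peaks over 1000 bp were rare in the Foxa1 pair at equal length, 20 in Foxa3-N1 and 5 in Foxa1-C3, and more frequent in the Foxa2 pair, 88 in Foxa3-N2 and 95 in Foxa2-C3. At equal length both lists of the Foxa2 antibody had a larger median width than both lists of the Foxa1 antibody, whereas the 2 core sides overlapped.

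**Figure D4:**
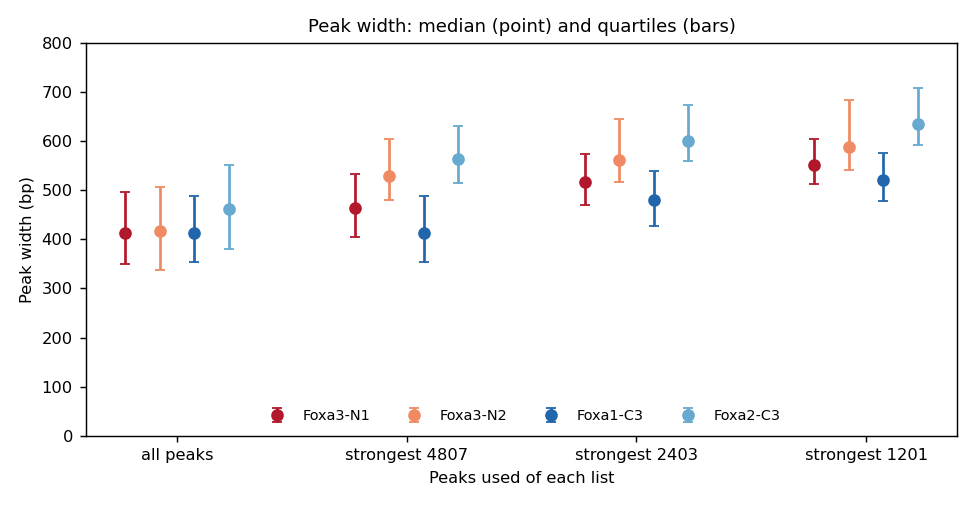
Peak width in bp of the 4 lists (points, median; bars, lower to upper quartile) for all peaks and for the 4807, 2403 and 1201 strongest peaks of each list. At equal length Foxa3-N1 lies above Foxa1-C3 (464 and 413 bp), Foxa3-N2 lies below Foxa2-C3 (528 and 564 bp), and both lists of the Foxa2 pair lie above both lists of the Foxa1 pair.

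The widest peaks did not fall in 1 place. The widest peak of Foxa1-C3, 1223 bp at chr5:99665390-99666612 (rank 94), and that of Foxa2-C3, 1538 bp at chr3:122184945-122186482 (rank 1674), lay in regions of all 4 lists. That of Foxa3-N1, 1397 bp at chr2:59057888-59059284 (rank 3550), lay in a region of 3 lists. The widest peak of Foxa3-N2, 2801 bp at chr9:3035566-3038366 (rank 8011), was in no other of the 4 lists and belonged to a dense run of 38 Foxa3-N2 peaks at the start of chromosome 9, chr9:3000019-3038366, with ranks from 4503 to 16217. The other 3 lists had 0 peaks there. This run was chosen after its values were seen.

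The order of the 4 lists by crowding was that of their lengths. In the full lists 24.9% of Foxa3-N1 peaks and 43.1% of Foxa3-N2 peaks had another peak of the same list within 10 kb, against 19.2% in Foxa1-C3 and 40.1% in Foxa2-C3. The Foxa3-core lists were higher by 5.67 percentage points in the Foxa1 pair and by 2.99 in the Foxa2 pair. The mean difference was 4.33 ± 1.90 percentage points (SD, n = 2 pairs), with an exact sign-flip p of 0.5, the smallest that 2 pairs can give. The SDs within the sides were 12.9 (n = 2) and 14.8 (n = 2) and hold the gap between the 2 antibodies. The exact two-sided permutation p was 0.667. At equal length the shares were 18.2% and 20.8% with the Foxa3 core and 19.2% and 21.5% with the others, so that both pairs turned sign (-1.02 and -0.707 points). Their 95% intervals overlapped within each pair. Within 2 kb the shares at equal length were 4.87% and 5.10% in Foxa3-N1 and Foxa1-C3, and 5.68% (interval 5.06 to 6.37) in Foxa3-N2 against 7.11% (interval 6.42 to 7.88) in Foxa2-C3. With the 2403 strongest peaks the 10 kb difference was -0.166 points in the Foxa1 pair and 0.707 in the Foxa2 pair, so its sign in the Foxa2 pair depended on the length used. Runs of at least 3 peaks linked by gaps of at most 10 kb held 3.49% and 4.08% of Foxa3-core peaks and 3.93% and 5.37% of the others at equal length. The longest runs in the full lists were 7 peaks in Foxa3-N1, at chr5:90854216-90879489, 10 in Foxa2-C3, at chr9:34880064-34909699, and the run of 38 in Foxa3-N2.

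Few of the core-separating regions lay near another of their class. At equal length 10 of the 233 Foxa3-core regions (4.29%) and 29 of the 396 Foxa1/2-core regions (7.32%) lay within 50 kb of another region of their class, with overlapping intervals (2.35 to 7.72 and 5.15 to 10.3). In the full lists the order was the other way, with 62 of 644 (9.63%) and 16 of 270 (5.93%), and at both lengths the larger class had the higher share. The share of peaks on a chromosome was higher in both Foxa3-core lists than in both others, at equal length, on 2 of 20 chromosomes (5 and 11). It was lower on 2 (7 and 18). If every order of the 4 lists were as frequent, 1 in 6 chromosomes would separate each way. On chromosome 5 the shares were 6.30% and 5.74% against 5.60% and 5.47%, and on chromosome 11 they were 5.80% and 6.10% against 5.20% and 5.68%. On chromosome 7 they were 4.91% and 5.33% against 5.51% and 5.60%, and on chromosome 18 3.14% and 3.79% against 3.99% and 3.93%. In the full lists the 2 higher chromosomes were 5 and 9 and the 2 lower ones 16 and 18.

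Constructs that carry the Foxa3 N-terminal domain in place of the C-terminal one give lists that were not used to choose these regions. Foxa3-C1 and Foxa3-C2 are Foxa3 with the C-terminal domain of Foxa1 or Foxa2 and have the Foxa3 core, and Foxa1-N3 and Foxa2-N3 are Foxa1 and Foxa2 with the Foxa3 N-terminal domain. All 4 were precipitated with an antibody to Foxa3. Their full lists were read against the classes at equal length. Foxa3-C1 had a peak in 84 of the 233 Foxa3-core regions (36.1%, interval 30.2 to 42.4) and in 243 of the 396 Foxa1/2-core regions (61.4%, interval 56.5 to 66.0), against 47.0% of all regions. Foxa3-C1 has the Foxa3 core, and the class it met less often was that of the Foxa3-core lists.

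The other 3 lists did not follow the core either. Foxa3-C2 met 24.0% of the Foxa3-core and 29.0% of the Foxa1/2-core regions, with overlapping intervals (19.0 to 29.9 and 24.8 to 33.7) and 29.4% over all regions. Foxa2-N3, which has the Foxa2 core, met 45.9% of the Foxa3-core regions (interval 39.6 to 52.3) and 35.9% of the Foxa1/2-core regions (interval 31.3 to 40.7, which overlaps the first), against 39.6% of all. Foxa1-N3, the shortest list, met 6.01% and 3.03%, against 9.15% of all. In each of the 4 lists the point estimate was higher for the class of the opposite core in this design, and the intervals were apart only in Foxa3-C1. In the full lists the order was the same, with 21.0% and 39.6% in Foxa3-C1 and 23.1% and 15.2% in Foxa2-N3. Regions of all 4 lists were met more often: Foxa3-C1 had a peak in 87.6% of them, Foxa2-N3 in 83.1%, Foxa3-C2 in 73.5% and Foxa1-N3 in 29.7%.

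The order was also the same among stronger and weaker regions, split at a mean rank of 2403 for all classes. Foxa3-C1 met 48.5% of the 68 stronger Foxa3-core regions and 69.7% of the 122 stronger Foxa1/2-core regions, and 30.9% of the 165 and 57.7% of the 274 weaker ones. Foxa2-N3 met 57.4% and 44.3% of the stronger and 41.2% and 32.1% of the weaker regions. Each of these shares comes from 1 library, and the terminal domains and the antibody of the 4 lists differ from those of the lists that set the classes, so the core cannot be told apart from these.

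**Figure D5:**
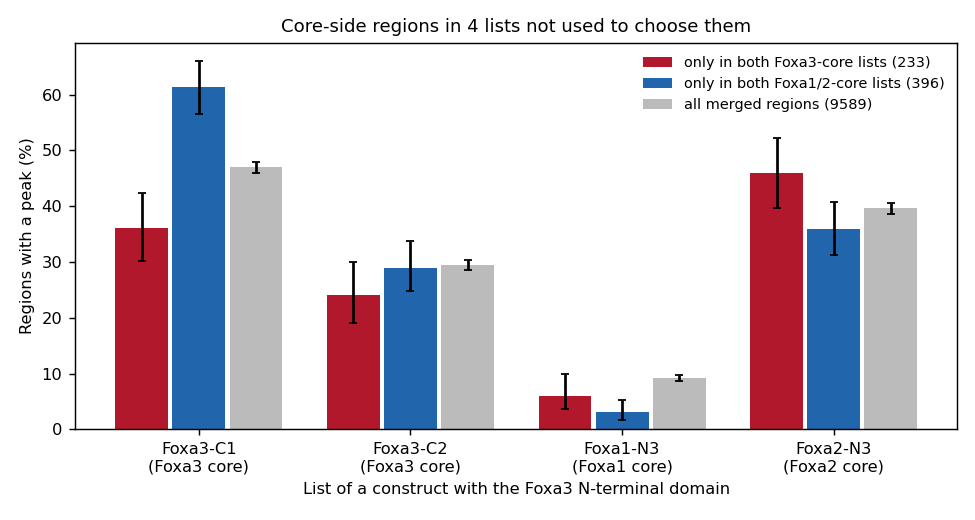
Share in percent of 3 sets of equal-length regions that have a peak in each of the 4 lists of constructs with the Foxa3 N-terminal domain; bars are shares with 95% Wilson intervals, and the number of regions is in the key. Foxa3-C1, with a Foxa3 core, met 36.1% of the Foxa3-core regions (red) and 61.4% of the Foxa1/2-core regions (blue), and Foxa2-N3, with a Foxa2 core, met 45.9% and 35.9%.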

How the data were processed

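ChIP-seq peak lists of 4 constructs with the Foxa3 C-terminal domain were analysed, with 4 lists of constructs with the Foxa3 N-terminal domain for comparison. Input libraries were not analysed here. Among tools, MACS2 2.1.0, BWA 0.6.2 and bedtools 2.16.2 appear in the submitters' processing notes, with the build mm9; settings, and how input was used, are not stated in the labels. Each list deposited by the authors gives position, name and a score per peak. What kind of score this is was not stated in the labels, and it served only to rank peaks within a list or to filter them. The filter at the pooled median put the same cut on all 4 lists. It takes scores as comparable between lists, which was not tested. Starts were converted to count from 1.

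Overlaps of at least 1 bp were computed with Python 3.11.15, numpy 2.4.6 and pandas 2.3.3, and matched bedtools 2.31.1 in 12 of 12 ordered pairs of lists. Exact two-sided permutation over 6 splits was used for log2 number, median width and crowding (scipy 1.17.1), with an exact sign-flip over the 2 pairs, and figures were drawn with matplotlib 3.10.9. The region counts were checked on simulated data, where all 200 and 150 planted regions of the 2 sides were recovered. The simulated regions were well separated, so this checked the counting and not the merging of crowded peaks. Regions were named by rule: the 5 with the best mean rank in each class at equal length, the 5 with the largest rank difference, and the widest peak of each list. Other positions are said to be chosen after seeing values. Alternatives were equal list lengths, a score above the pooled median (20.5), merging within 1 kb, midpoints within 200 bp, neighbour distances of 2 and 50 kb, and leaving out a pair. Planned analyses of genes, motifs and protein sequences were not run: no mm9 annotation or genome and no protein table were used here, and on 8 of 20 chromosomes the furthest peak lies past the last gene of the GRCm38 gene table at hand. The members and lists were chosen with earlier results of these data known.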

Additional observations from a re-analysis of the deposited data

Results flagged for a closer look

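The median width at equal list length differed between the Foxa3 and the other core by 51 bp in the Foxa1 pair and by -36 bp in the Foxa2 pair, and in regions with 1 peak in each list the median differences were 24 and -39 bp. These were listed because the 2 pairs moved in opposite directions, and the difference between the pairs was not tested, with 1 library for each construct. In the full lists the differences in median width were 0 bp in the Foxa1 pair and -45 bp in the Foxa2 pair.

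A list of 698 peaks titled 4a3_DA1 was put in no group, because its title names a domain exchange while its other labels name unmodified Foxa1 with Hnf4alpha and an antibody to Hnf4alpha. Of its peaks, 110 (15.8%, interval 13.2 to 18.6) met a region of the 4 lists, and it is given here as a signal outside the comparisons. The overlap that chance placement would give was not tested. The number meeting each list was 106 for Foxa3-N2, 55 for Foxa2-C3, 27 for Foxa3-N1 and 11 for Foxa1-C3. These counts were in the order of the list lengths but not in proportion to them. Foxa3-N2 was met by 106 of the 110 peaks and Foxa2-C3 by 55, while the ratio of their lengths was 1.21.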

How the results depend on the processing

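Equal list length reversed the mean difference in median width, to 7.5 bp, and in peaks with a neighbour within 10 kb, to -0.863 percentage points. Width above the narrowest peak of each list gave 3.5 bp. Regions only in both Foxa3-core lists fell from 644 to 233, 120 and 64 at the 3 equal lengths and to 290 with a score above the pooled median. Regions only in both Foxa1/2-core lists (270) numbered 101 at the shortest length and 122 with that score. With that score the order of the 2 sides was that of the full lists. Shared regions ranked higher in both Foxa3-core lists rose from 216 to 425 with ranks over list length, and the share of regions differing the same way in both pairs was 57.6% in the full lists. Leaving out 1 pair gave log2 differences of 0.27 to 0.67, width differences of -45 to 0 bp and crowding differences of 2.99 to 5.67 points. It gave 4446 to 7235 Foxa3-core and 1628 to 4431 Foxa1/2-core regions, since 1 list then stands for each side. In all, 28 of the alternative values kept their direction, or stayed within 1.5 times the count or within the interval of the share. Another 13 fell outside these limits or came to 0, and 3 reversed direction. The 28 include the sign-flip values, which must equal the main ones. They also include the counts 270 to 396, 270 to 183 and 314 to 218, at settings where the order of the sides turned. Of the alternatives, leaving out chromosome 6 and those for the share differing the same way were chosen after seeing the data. An exact sign-flip over the 2 antibody-matched pairs, also added later, leaves the mean differences as they are and cannot give a p below 0.5. Depth is unknown, so list length cannot be told apart from depth, and an absent peak is one not listed.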

Other observations

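Among the 4 lists of constructs with the Foxa3 N-terminal domain, the share of peaks on chromosome 6 was 7.61% in Foxa2-N3 (interval 6.92 to 8.36), 8.58% in Foxa1-N3 (6.96 to 10.5), 6.16% in Foxa3-C1 and 6.71% in Foxa3-C2, beside 7.42% in the full list of Foxa3-N2. At the start of chromosome 9, where Foxa3-N2 had 38 peaks, Foxa3-C1 had 1 peak and Foxa3-C2, Foxa1-N3 and Foxa2-N3 had 0. The gap between neighbouring peaks of that run had a median of 113 bp.

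Chosen after seeing the data, the next Foxa3-core regions with no peak in the full lists of the other core were chr7:147906639-147907405 (ranks 1278 in Foxa3-N1 and 1078 in Foxa3-N2), which also had a peak at rank 534 in Foxa1-N3, and chr5:107864771-107865346 (ranks 802 and 1606). On the other side they were chr11:104202799-104203391 (ranks 972 in Foxa1-C3 and 772 in Foxa2-C3) and chr15:68251896-68252531 (ranks 595 and 1301). Foxa3-C1, which has a Foxa3 core, held both of the latter, at ranks 3004 and 515.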
